A study of Mus musculus with 8 samples.

Results

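Laminins are the cross-shaped glycoproteins of the basement membrane, the sheet of matrix on which epithelial cells sit. Each laminin is a trimer of an α, a β and a γ chain, and each chain is the product of its own gene, so the chains that a cell makes set the trimers that it can assemble. Laminin-511 (Lama5, Lamb1, Lamc1) and laminin-521 (Lama5, Lamb2, Lamc1) are widespread epithelial forms, whereas laminin that holds the Lama3 and Lamb3 chains joins epithelial cells to the underlying matrix through the integrin α6β4. TGFβ is a known inducer of matrix genes and acts in large part through complexes of SMAD2 or SMAD3 with SMAD4.

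The 8 laminin genes described here were Lama1, Lama3, Lama4, Lama5, Lamb1, Lamb2, Lamb3 and Lamc1. They were selected by their gene symbol among 53465 genes in the deposited count table, by a rule that used no measured value. The set itself was chosen with earlier results of these data known. Lama2 and Lamc3, which are not among them, are given once.

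RNA-seq was done on cultured mouse pancreatic ductal adenocarcinoma (PDAC) cells of the lines B73 and B87, each established from a primary pancreatic tumor. The lines came from KC-shSmad4 mice of mixed C57BL/6J;129 background, which carried Ptf1a-Cre (expressed in the pancreatic lineage), a Rosa26 LSL-rtTA3-IRES-mKate2 allele and, at Col1a1, a doxycycline (Dox)-inducible, GFP-linked hairpin against Smad4. All 4 groups shared these alleles. Dox kept Smad4 off, and 5 days of culture in its absence turned Smad4 on. Each state was then treated for 24 h with 100 pM recombinant mouse TGFβ1 or with 2.5 µM SB505124, an inhibitor of the type I TGFβ receptor kinase, so that each of the 4 groups held 1 library of each line. No group was left without both agents, so a TGFβ1 response here is the difference from blocked signaling, and the Dox itself differed between Smad4 off and Smad4 on cells. The lines were grown on collagen-coated plates. Each line stands for 1 tumor, and the labels do not say which of the study's hairpins either line carried.

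The libraries held 18389235 to 23440550 counts. Smad4 was at 33.7, 34.7, 34.9 and 35.5 CPM (the count scaled to a common library total by TMM) in the Smad4-off libraries and at 97.4, 117, 114 and 115 CPM in the Smad4-on libraries, so the libraries matched their labels. The keratins Krt8 and Krt18 were at 236 to 2428 CPM in all 8 libraries, whereas Epcam was at 0.153 to 2.11 CPM. Of the 6 leukocyte markers 5 had at most 3 counts in every library, as did the 4 acinar markers. The summed CPM of the 7 epithelial markers was 3944 to 6209 in B73 and 1218 to 2109 in B87. The summed CPM of the 6 fibroblast markers was at most 8.88 in B73 and 43.9 to 647 in B87, of which Lum had no counts in any library and Dcn at most 3. In bulk RNA, fewer cells that express a gene and less of its RNA per cell cannot be told apart.

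Levels of different genes were set side by side as CPM per kb of exon. Among the α chains Lama5 was far above the others. It was at 79.1, 67.9, 68.1 and 47.6 CPM per kb in B73 (in the order Smad4 off with SB505124, Smad4 on with SB505124, Smad4 off with TGFβ1, Smad4 on with TGFβ1) and at 64.6, 59.5, 65.6 and 41.4 CPM per kb in B87 in the same order. Lama5 made up 95.9% to 99.8% of the summed α-chain level per kb of exon in the 8 libraries. Per kb of the longest annotated transcript its lowest share was 92.3%, in B87 with Smad4 on and SB505124, where Lama4 was at 7.61%. Lama3 and Lama4 were scarce, and Lama1, the α chain of the embryonic laminin-111, had no counts in any library, which allows up to 0.125 to 0.162 CPM for counting error alone. Lama2, the α chain of muscle laminin, had 0 to 3 counts.

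The β chains were of mixed kind, and per kb of exon their order turned on the treatment. The gene with the highest β-chain level per kb of exon was Lamb2 in all 4 libraries under SB505124, at 53.3% to 69.1% of the summed β-chain level. Under TGFβ1 it was Lamb1 in 3 libraries, at 54.0% to 76.7%. In the remaining library, B73 with Smad4 on and TGFβ1, it was Lamb3, at 47.0% (95% counting interval 46.2% to 47.8%, delta method on the logit scale) against 38.8% for Lamb1. The order of neighbouring β chains depended on the length used. Per kb of the longest annotated transcript, which is much shorter than the union of exons for Lamb1, Lamb1 was highest in 6 of 8 libraries in place of 3, Lamb2 in 2 and Lamb3 in 0. By that length Lamb1 led in B87 under both treatments, at 54.4% and 56.2% under SB505124 (Smad4 off, then on). In B73 with Smad4 on and TGFβ1, Lamb1 was then at 45.7% against 43.8% for Lamb3.

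Lamc1, a γ chain, was at 57.7, 43.7, 42.4 and 31.3 CPM per kb in B73 and at 66.0, 54.1, 54.6 and 35.9 CPM per kb in B87, in the order used for Lama5. Lamc3, another γ chain, had 2 to 13 counts in each library.

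**Figure D1:**
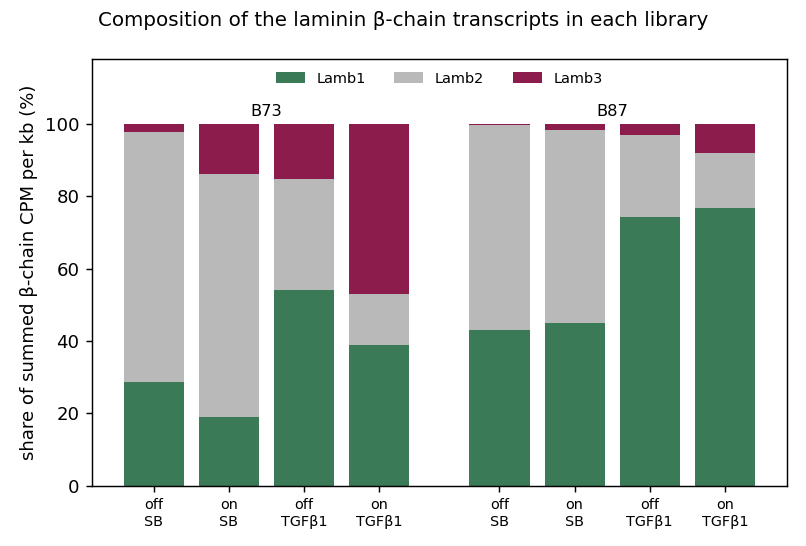
Composition of the laminin β-chain transcripts in each of the 8 libraries. Bars stack each gene's share, in percent, of the summed CPM per kb of exon of the β chains (off and on, Smad4 state; SB, SB505124). Under TGFβ1 the Lamb2 share fell to between 14.2% and 30.6% from at least 53.3% under SB505124, and the Lamb3 share ran from 0.479% in B87 with Smad4 off and SB505124 to 47.0% in B73 with Smad4 on and TGFβ1.

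Lamb3 was the member that changed most with both Smad4 and TGFβ1. It lies on the forward strand of chromosome 1 (GRCm38, 193207699 to 193343878 in the annotation used for counting), and its span covers Hsd11b1 and G0s2 on the opposite strand, without any shared exon base. In B73 its levels were 8.89 CPM with Smad4 off and SB505124, 58.4 CPM with Smad4 on and SB505124, 71.6 CPM with Smad4 off and TGFβ1, and 341 CPM with Smad4 on and TGFβ1. In B87 the levels in the same order were 1.67, 7.36, 14.5 and 45.9 CPM. Both lines thus gave the same order of the 4 conditions, and from the lowest to the highest the level rose 38.3-fold in B73 and 27.5-fold in B87. The neighbours in the middle of that order lay close in B73 (58.4 and 71.6 CPM) and further apart in B87 (7.36 and 14.5 CPM).

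With Smad4 on, Lamb3 was 3.95-fold higher under TGFβ1 (log2FC 1.98 ± 0.17 SE, adjusted p = 0.00187, edgeR quasi-likelihood test with line as a term, n = 2 libraries per group). Under SB505124 it was 5.72-fold higher (log2FC 2.52 ± 0.20, adjusted p = 0.00358). Each line showed the change, with log2FC of 2.25 in B73 and 1.66 in B87 under TGFβ1 and of 2.70 and 2.08 under SB505124. A change was called when the adjusted p was below 0.05 and the fold above 2. By that rule Lamb3 was the 1 member called of 7 tested under TGFβ1, where 3.12% of all 14301 tested genes were called, and Lamb3 and Lama4 were the 2 called under SB505124, where 1.09% were.

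Lamb3 also rose with TGFβ1 in either Smad4 state. It was 8.60-fold higher in Smad4-off cells (log2FC 3.10 ± 0.20, adjusted p = 0.000638) and 5.93-fold higher in Smad4-on cells (log2FC 2.57 ± 0.17, adjusted p = 0.000158). The difference between these responses, which is also that between the Smad4 effects under either agent, was −0.54 ± 0.26 on the log2 scale (adjusted p = 0.545) and was not called. The Lamb3 calls in these 4 comparisons rest on the term for line: the lines differed 6.43-fold in Lamb3, and in a fit without that term the log2FC stayed between 2.16 and 3.04 while the adjusted p rose to 0.292 to 0.985 in edgeR.

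Lamb1, the β chain of laminin-111, laminin-411 and laminin-511, rose with TGFβ1 but was not called with Smad4. In B73 it was at 167 and 120 CPM under SB505124 (Smad4 off, then on) and at 379 and 422 CPM under TGFβ1. In B87 it was at 224 and 282 CPM under SB505124 and at 534 and 653 CPM under TGFβ1. Every TGFβ1 library lay above every SB505124 library of either line. The share of all genes without such overlap was not counted. TGFβ1 raised Lamb1 2.32-fold in Smad4-off cells (log2FC 1.21 ± 0.19, adjusted p = 0.00823) and 2.79-fold in Smad4-on cells (log2FC 1.48 ± 0.19, adjusted p = 0.00159). The edgeR test against a change of 2-fold, which is stricter, did not call Lamb1 (adjusted p = 0.828 and 0.0652). Smad4 on against off gave log2FC of 0.22 ± 0.18 under TGFβ1 (adjusted p = 0.514) and −0.046 ± 0.18 under SB505124 (adjusted p = 0.947), the latter with opposite signs in the lines (−0.47 in B73 and 0.33 in B87).

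Lamb2, the β chain best known from laminins of the synapse and the kidney filter, went the other way. In B73 it was at 247 and 259 CPM under SB505124 (Smad4 off, then on) and at 132 and 94.3 CPM under TGFβ1. In B87 it was at 181 and 206 CPM under SB505124 and at 100.1 and 79.5 CPM under TGFβ1. The groups of the 2 treatments did not overlap, and here too the share of all genes without overlap was not counted. TGFβ1 lowered Lamb2 2.66-fold in Smad4-on cells (log2FC −1.41 ± 0.08, adjusted p = 0.000109), which was called under all 9 alternative settings. In Smad4-off cells it was 1.85-fold lower (log2FC −0.88 ± 0.08, adjusted p = 0.00155), below the 2-fold rule. With Smad4 on, Lamb2 was 1.33-fold lower under TGFβ1 (log2FC −0.41 ± 0.08, adjusted p = 0.0355), again below that rule, and under SB505124 its log2FC was 0.12 ± 0.08 (adjusted p = 0.598). The difference between the responses was −0.53 ± 0.12 (adjusted p = 0.182), of like size in B73 (−0.55) and B87 (−0.52), and was not called.

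**Figure D2:**
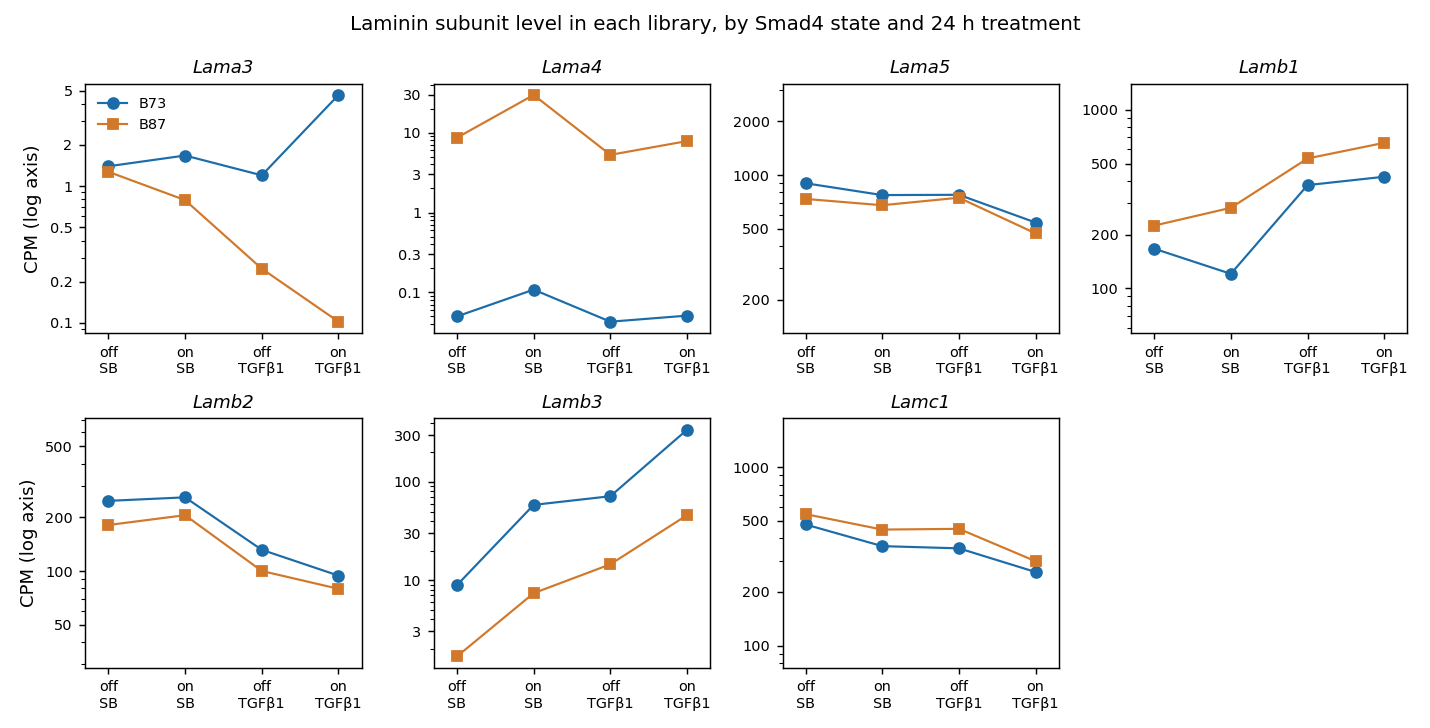
Level of each detected laminin subunit in each library, in CPM on a log axis, for the 4 conditions (off and on, Smad4 state; SB, SB505124). Circles are B73 and squares B87, 1 library each; Lama1 had no counts and is not drawn. Lamb3 climbed through the 4 conditions in both lines, to 341 and 45.9 CPM, while Lama4 was at 5.28 to 29.7 CPM in B87 and at 0.0429 to 0.108 CPM in B73.

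The β-chain genes that rose and fell can be set beside the sequence before their starts. The 250 bases before the first RefSeq start (GRCm38.p6) are shown for Lamb3, Lamb1 and Lamb2, without the bases that lie in an annotated exon, since these members carried the changes. Capitals mark CAGAC (the SMAD-binding element), GGCGC (its GC-rich form) and TGANTCA (the AP-1 site), each searched on both strands, so that GTCTG and GCGCC are the same motifs on the other strand.
Lamb3, chr1:193301744-193301992, forward strand: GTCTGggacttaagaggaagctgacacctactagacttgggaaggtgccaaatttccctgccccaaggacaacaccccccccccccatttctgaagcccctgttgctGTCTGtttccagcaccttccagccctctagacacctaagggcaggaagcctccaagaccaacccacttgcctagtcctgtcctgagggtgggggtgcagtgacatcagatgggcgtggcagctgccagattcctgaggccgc
Lamb1, chr12:31265043-31265233, forward strand: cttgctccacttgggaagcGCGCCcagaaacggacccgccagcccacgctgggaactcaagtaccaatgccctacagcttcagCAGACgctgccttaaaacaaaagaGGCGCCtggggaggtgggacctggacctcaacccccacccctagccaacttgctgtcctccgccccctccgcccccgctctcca
Lamb2, chr9:108479612-108479735, forward strand: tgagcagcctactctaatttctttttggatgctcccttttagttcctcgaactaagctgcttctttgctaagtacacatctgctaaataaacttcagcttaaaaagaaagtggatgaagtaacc
The whole Lamb3 window held 2 copies of CAGAC and no GGCGC. The Lamb1 window held 1 copy of CAGAC and 3 of GGCGC, of which 2 overlap in GGCGCC. The Lamb2 window held 2 copies of CAGAC, at 123 and 100 bases before the RefSeq start, both in the 126 bases that an annotated exon covers and that are not shown. No TGANTCA was found in any of them. The window of Lama5, searched in the same way and not shown, held 1 copy of CAGAC and 3 of GGCGC, the same counts as Lamb1. Lama5 passed the 2-fold rule in no comparison. CAGAC occurred in 42.2% of 32851 promoter windows of this length, GGCGC in 32% and TGANTCA in 6.75%. A second RefSeq start of Lamb3 lies just downstream, and its window, not shown, held 1 further copy of CAGAC. The Lamb3 span used for counting begins at 193207699, upstream of both windows. Which start these cells use was not tested.

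Lama5, the α chain of laminin-511 and laminin-521, did not pass the 2-fold rule in any comparison. It was at 901, 773, 776 and 542 CPM in B73 and at 736, 678, 747 and 471 CPM in B87, in the order used above. In each line the lowest library was that with Smad4 on and TGFβ1. Lama5 was 1.51-fold lower with Smad4 on under TGFβ1 (log2FC −0.59 ± 0.09, adjusted p = 0.0127), and 1.43-fold lower with TGFβ1 in Smad4-on cells (log2FC −0.52 ± 0.09, adjusted p = 0.00503). Under SB505124 the Smad4 difference was −0.17 ± 0.09 (adjusted p = 0.494), and in Smad4-off cells the TGFβ1 difference was −0.10 ± 0.09 (adjusted p = 0.526). The difference between these responses was −0.42 ± 0.12 (adjusted p = 0.293) and was not called.

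Lamc1, the γ chain shared by most laminins, followed Lama5. It was at 478, 361, 351 and 259 CPM in B73 and at 546, 447, 452 and 297 CPM in B87. It was 1.44-fold lower with Smad4 on under TGFβ1 (log2FC −0.52 ± 0.08, adjusted p = 0.0157), and with TGFβ1 it was 1.45-fold lower in Smad4-on cells (log2FC −0.54 ± 0.08, adjusted p = 0.00341) and 1.28-fold lower in Smad4-off cells (log2FC −0.36 ± 0.08, adjusted p = 0.0333), none of which passed the 2-fold rule. Under SB505124 the Smad4 difference was −0.35 ± 0.08 (adjusted p = 0.126). Counting members by the adjusted p alone, 4 of 7 passed for Smad4 under TGFβ1 (Lama5, Lamb2, Lamb3 and Lamc1), against 6.8% of all tested genes, and 6 of 7 passed for TGFβ1 in Smad4-on cells (all but Lama3), against 33.2%.

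Lama3, the α chain that joins Lamb3 in epithelial laminin, was scarce, and its counts were 28, 31, 28 and 91 in B73 and 29, 19, 5 and 2 in B87. The libraries with Smad4 on and TGFβ1 thus held the highest count of B73 and the lowest of B87. No comparison of conditions was called for Lama3, and the log2FC for Smad4 under TGFβ1 was 1.44 ± 0.93 (adjusted p = 0.398), from 1.87 in B73 and −0.80 in B87. The test of whether the lines differed in the TGFβ1 response gave −3.24 ± 0.94 (adjusted p = 0.542). Exons of Lama3 share 197 bases with genes on the opposite strand, and 1.16% of its 75-base stretches occur elsewhere in the transcriptome, so with a strand setting that is not given in the sources used here, these few counts are uncertain.

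Lama4, the α chain of endothelial and mesenchymal laminin-411, was present in 1 line. Its counts were 197, 714, 106 and 154 in B87 and 1, 2, 1 and 1 in B73. Over the 4 libraries of each line the CPM ratio was 220.6 (95% exact counting interval 94.3 to 681). In B87 it was highest with Smad4 on under SB505124, at 29.7 CPM against 8.65, 5.28 and 7.85 CPM in the other libraries. It was called higher with Smad4 on under SB505124 (log2FC 1.73 ± 0.24, adjusted p = 0.0206) and lower with TGFβ1 in Smad4-on cells (log2FC −1.87 ± 0.24, adjusted p = 0.00167). Both calls rest on B87, with log2FC of 1.77 and −1.91 there, since in B73 1 count was set against 2. The summed CPM of the 5 endothelial markers was 2.70 to 26.1 in B87 and 0.756 to 7.24 in B73, of which Pecam1, Tek and Vwf had at most 5 counts in every library and Cdh5 at most 54, while Kdr had 51 to 506 counts in B87 and 7 to 141 in B73 and was called higher in B87 (adjusted p = 0.00146). Their part in the Lama4 values was not tested. Lama4 was not among the genes tested when at least 10 counts were required in every library, and it was not called for Smad4 in a fit of the 4 libraries compared (adjusted p = 0.0807).

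**Figure D3:**
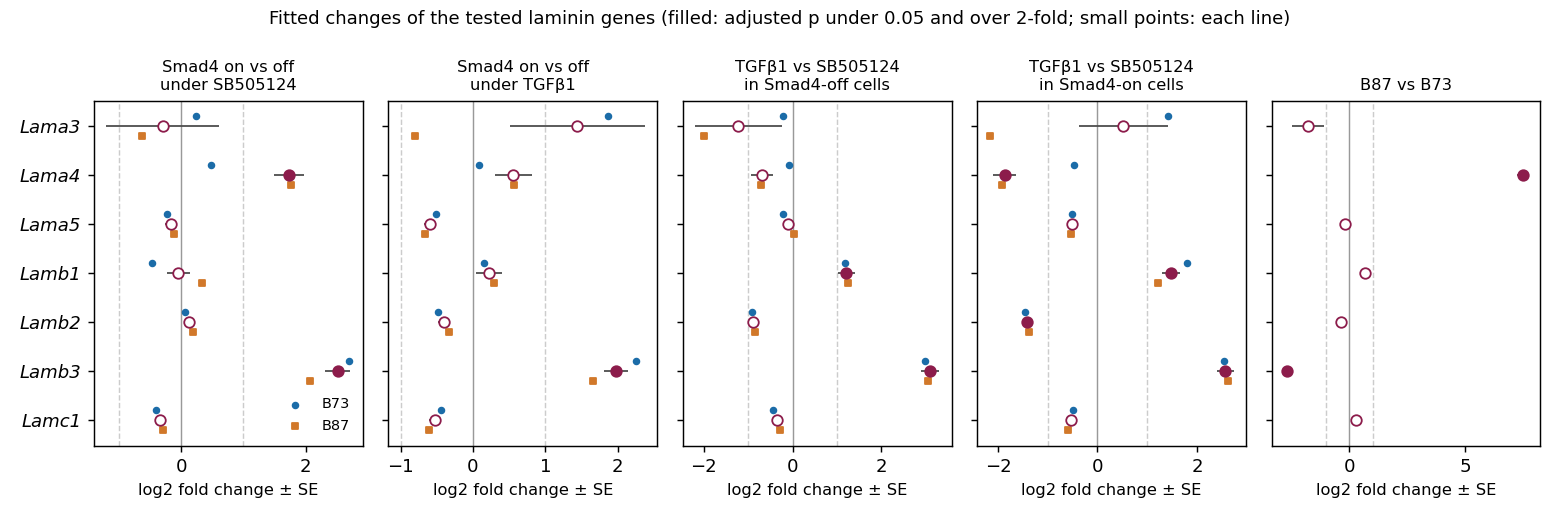
Fitted log2 fold changes with standard errors for the 7 tested members, in the 4 comparisons of conditions and between the lines. Filled circles passed an adjusted p below 0.05 and a 2-fold change, dashed lines mark 2-fold, and small circles and squares are B73 and B87 alone. Lamb3 is filled in all 5 panels, higher with Smad4 and with TGFβ1 and lower in B87.

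In all, TGFβ1 changed 2 members in Smad4-off cells (Lamb1 and Lamb3, both higher), where 5.93% of all tested genes were called (3.11% higher and 2.82% lower), and 4 in Smad4-on cells (Lamb1 and Lamb3 higher, Lamb2 and Lama4 lower), where 13.9% were (5.62% higher and 8.31% lower). The median log2FC of the 7 tested members was −0.36 and −0.52, against −0.02 over all genes in each case. For Smad4 the medians were 0.22 under TGFβ1 and −0.046 under SB505124, against −0.01 and 0.00 over all genes. No member was called for a difference between the responses (0.189% of all genes were). These comparisons share libraries, so their counts are not independent of each other. In the 2 treatment comparisons the epithelial markers Krt19 (both) and Cdh1 (Smad4-on cells) were called lower and the fibroblast marker Col1a1 was called higher, while the endothelial markers Cdh5 (both) and Kdr (Smad4-off cells) were called higher. With Smad4 on, as Lamb3 rose, Col1a1 was called higher under TGFβ1 (3.42-fold, adjusted p = 0.00656) and under SB505124 (4.22-fold, adjusted p = 0.0136), and Kdr was called lower under TGFβ1 (10.2-fold, adjusted p = 0.00289). No other marker tested was called in these 4 comparisons, and the part of these genes in the laminin values was not tested.

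The lines differed in the laminins they expressed. B87 had 6.43-fold less Lamb3 than B73 over the 4 conditions (log2FC −2.69 ± 0.13, adjusted p = 5.36e-05, n = 4 libraries per line), while Lama4 was called higher as above. Lamb3 and Lama4 were the 2 members called, where 8.37% of all genes were. Lamb1 was higher in B87 (log2FC 0.69 ± 0.13, adjusted p = 0.0122), as was Lamc1 (log2FC 0.27 ± 0.06, adjusted p = 0.0213), and Lamb2 was lower (log2FC −0.36 ± 0.06, adjusted p = 0.00671), all below the 2-fold rule. For Lama5 the log2FC was −0.18 ± 0.06 (adjusted p = 0.0889) and for Lama3 −1.78 ± 0.68 (adjusted p = 0.126). Of the 9 laminin receptor genes tested, 1 was called lower and 1 higher in B87. Itgb4, the β chain of the hemidesmosome integrin α6β4, was 4.55-fold lower in B87 (adjusted p = 0.0024). Bcam, an adhesion molecule that binds Lama5, was 2.47-fold higher (adjusted p = 0.000256). Among 16 tested genes for basement membrane partners and anchoring structures, 3 were called higher and 4 lower in B87.

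In the same comparison 4 of 7 epithelial markers were called lower in B87 (Krt7, Krt8, Krt18 and Cdh1), and of the 4 fibroblast markers tested 3 were called higher (Col1a1, Pdgfra and Pdgfrb) and Col1a2 was called lower. Their part in the Lamb3 and Lama4 values was not tested. The lines were not called different in how any member responded. For the Smad4 response the Lamb3 difference was −0.60 ± 0.14 (adjusted p = 0.184), where 0.392% of all genes were called. For the TGFβ1 response the Lamb3 difference was 0.19 ± 0.27 (adjusted p = 0.881), and no gene of 14301 was called by edgeR, with 1198 at an unadjusted p under 0.05 and 24 called by DESeq2.

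After the mean of each line was subtracted, the log2 CPM of Lama5 and Lamc1 ran together over the 8 libraries (Pearson r = 0.956), while Lamb1 and Lamb2 ran opposite (r = −0.958), as did Lamb3 and Lamc1 (r = −0.962). These values describe libraries that share 4 conditions and are given without a test. The 3 genes of 9411 most like each member by this measure were Fbln2, Ciapin1 and Mtmr9 for Lamb3 (r = 0.998 to 0.995), Marcksl1, Znhit1 and Dgkh for Lamb1 (0.997 to 0.994), Kitl, C2cd5 and Galnt4 for Lamb2 (0.998 to 0.997), Egln3, Coasy and Arhgef10l for Lama5 (0.989 to 0.981) and Sbf2, Slc12a2 and Pex13 for Lamc1 (0.992 to 0.991). Fbln2 encodes fibulin-2, a matrix protein that binds laminins.

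Among the 16 tested of 19 genes for basement membrane partners and anchoring structures, 1 was called higher and 2 lower with Smad4 on under TGFβ1, 0 and 2 under SB505124, 4 and 1 with TGFβ1 in Smad4-on cells, and 3 and 0 in Smad4-off cells. Of all tested genes 3.12% were called for Smad4 under TGFβ1 and 1.09% under SB505124. With TGFβ1, 5.62% were called higher and 8.31% lower in Smad4-on cells, and 3.11% and 2.82% in Smad4-off cells. Col4a3 and Col4a4, the paired chains of type IV collagen of specialised basement membranes, fell with Smad4 on, with log2FC of −4.10 ± 0.22 and −4.01 ± 0.31 under TGFβ1 (adjusted p = 0.00084 and 0.0014) and of −4.17 ± 0.28 and −3.68 ± 0.35 under SB505124 (adjusted p = 0.00316 and 0.00569). In B87 under TGFβ1, Col4a3 was at 65.7 CPM with Smad4 off and 3.93 CPM with Smad4 on, and in B73 at 19.3 and 1.12 CPM. Col7a1, the anchoring-fibril collagen that anchors the basement membrane, had the largest TGFβ1 response of the list.

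Col7a1 rose 34.5-fold with TGFβ1 in Smad4-on cells (log2FC 5.11 ± 0.17, adjusted p = 2.44e-05) and 25.0-fold in Smad4-off cells (log2FC 4.65 ± 0.16, adjusted p = 6.96e-05). It was at 10.1 to 39.3 CPM in the 4 SB505124 libraries and at 258 to 1103 CPM in the 4 TGFβ1 libraries. Col17a1, a transmembrane collagen of the hemidesmosome, was called higher with TGFβ1 in Smad4-on cells (log2FC 3.91 ± 0.78, adjusted p = 0.00956), but from 0 and 3 counts to 17 and 25 counts.

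Of the 9 laminin receptor genes, 2 were called lower with Smad4 on under TGFβ1, none under SB505124 or with TGFβ1 in Smad4-off cells, and 2 higher and 2 lower with TGFβ1 in Smad4-on cells. Of all tested genes 3.12% were called in the first of these comparisons. In the last, 5.62% were called higher and 8.31% lower. The receptor genes called, named after their values were seen, were Bcam and Itga1, lower in both comparisons, and Itgb1 and Itga2, higher with TGFβ1. Of the 5 tested of 9 genes for laminin-processing proteases, TGFβ1 raised 4 in Smad4-on cells (Bmp1, Tll1, Mmp14 and Plau) and 2 in Smad4-off cells (Bmp1 and Tll1), with none lower. The shares of all tested genes called higher were 5.62% and 3.11%. With Smad4 on, Tll1, which encodes a tolloid-like protease, was 11.8-fold higher under TGFβ1 (adjusted p = 0.00162) and 4.26-fold higher under SB505124 (adjusted p = 0.0419), and Plau was lower under SB505124. Of the laminin-related netrins 2 of 6 were tested, and Ntn1 was called lower with TGFβ1 in Smad4-on cells (adjusted p = 0.0382).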

How the data were processed

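RNA was taken from the B73 and B87 cells in 8 cultures, and the authors made stranded poly(A) libraries with reads of 75 bases. Per the labels the processing used FastQC 0.11.5, Trimmomatic 0.36, STAR 2.5.3a and featureCounts 1.6.3 on GRCm38 (mm10); strand and multi-mapping settings are not given in the sources used here. The deposited table holds raw counts per gene, not normalized, with no pooled libraries.

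From these counts, genes were filtered with filterByExpr (14301 of 53465 kept), scaled by TMM and tested with edgeR 4.0.16 (R 4.3.3) by the quasi-likelihood F-test, with group and line as terms over all 8 libraries and Benjamini-Hochberg adjustment over all tested genes. SE was |log2FC| divided by the square root of F. A call needed an adjusted p under 0.05 and a change over 2-fold. The line difference in a response was an added line term. Of the 8 laminin genes 7 passed the filter. On simulated data for Smad4 under TGFβ1 (200 of 14301 genes changed by 2 on the log2 scale) 88.5% were recovered and 2.21% of calls were false. The simulated lines differed by a constant per gene, with no other treatment effect and no line difference in response. The rates therefore hold for a simpler setting than these data.

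Lines paired the libraries, as each line went through all conditions; deviations from group means correlated with r from 0.642 to 0.774 (6 pairs of groups). With 1 library per line and condition, p-values measure the spread between these libraries. CPM are counts divided by the TMM-scaled library total; 3 counts, the floor, were 0.125 to 0.162 CPM. CPM per kb used the union of exons of GENCODE M21, which equalled the deposited length for the members other than Lama1. Intervals cover counting error only, since PCR copies were not marked.

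Outside the 8 members and the other laminins, the text names from the other lists the called genes with the largest change (2 per comparison) and genes it says were chosen after their values were seen, or gives as markers. Genes of like pattern had a mean log2 CPM of at least 3. Members, lists and rules were chosen with earlier results of these data known. Alternatives were DESeq2 1.42.0, its size factors, other filters, no fold rule, a test against 2-fold, fits without line or of the compared libraries only, each line alone and transcript length. Promoter sequences are from RefSeq; Lama1, Lama4 and Lamc1 had no entry, and Lama3 was not searched here.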

Additional observations from a re-analysis of the deposited data

How the results depend on the processing

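The block for line (replicate block) decided most calls of conditions. The 9 member calls in the 4 comparisons of conditions fell to 1 without it in edgeR: 0 in place of 1 for Smad4 under TGFβ1, 0 in place of 2 under SB505124, 1 (Lamb2) in place of 4 for TGFβ1 in Smad4-on cells and 0 in place of 2 in Smad4-off cells. DESeq2 without the block called 0, 0, 2 (Lamb1 and Lamb2) and 1 (Lamb1) of them. Without the block the values of called members moved little, Lamb3 for Smad4 under TGFβ1 from 1.98 to 2.16 with an adjusted p of 0.595. Over all genes the counts of calls without the block were 36 in place of 446, 2 in place of 156, 1035 in place of 1993 and 168 in place of 848. The pairing came from the lines in the labels, with a median r of 0.758. Lamb1 for Smad4 under SB505124, not called, changed sign without the block, from −0.046 to 0.043 in edgeR and 0.044 in DESeq2.

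For Smad4 under SB505124, 1 member (Lamb3) in place of 2 was called with at least 10 counts in every library, with the test against 2-fold and with the 4 compared libraries alone. The test against 2-fold called 1 of 2 for TGFβ1 in Smad4-off cells. Between lines, 1 in place of 2 was called with at least 10 counts in every library. Without the fold rule 4 in place of 1 members passed for Smad4 under TGFβ1, against 6.8% of all tested genes. Without it 4 in place of 2 passed for TGFβ1 in Smad4-off cells and 5 in place of 2 between lines. For the latter comparisons the share of all genes passing is not given here, so these member counts lack a background and are not read as a result about the laminins. Of 14301 genes, 4106 (TGFβ1 in Smad4-off cells) and 4541 (between lines) had an unadjusted edgeR p under 0.05. Without the count filter 1 (Lama3) in place of 0 was called for the line difference in the TGFβ1 response. Per kb of the longest transcript Lamb1 led the β chains in 6 libraries in place of 3. DESeq2 with line, and its size factors in edgeR, kept each count of called members within 1.5 times. Each line alone gave every called member the sign of the fit, as values with no test; Lama4 under SB505124 was 0.49 in B73 and 1.77 in B87. Depth limits Lama1, Lama3 and, in B73, Lama4.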
